A study of Homo sapiens with 7 samples.

Results

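The accessible chromatin around PAX1 and PAX9 was followed in 7 ATAC-seq libraries of H1 cells, an established human embryonic stem cell line, on the way to pharyngeal foregut endoderm. A deposited peak belonged to a window when its summit, the highest point of the peak, lay in the span of PAX1 or PAX9 or within 100 kb of either end (hg38). Of 2093738 peaks in the 7 lists, 506 met this rule, 309 around PAX9 and 197 around PAX1. The PAX9 window is chr14:36557568-36779362, with the gene at chr14:36657568-36679362 (gene ID 5083). The PAX1 window is chr20:21605664-21818481, with the gene at chr20:21705664-21718481 (gene ID 5075). Distances below run along each chromosome from the lower-numbered end of the gene span, called the gene start.

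The libraries fall into 4 stages with no genetic change in any: stem cells before differentiation (hESC, 2 libraries), then definitive endoderm (hDE, 2), anterior foregut endoderm (hAFE, 2) and pharyngeal foregut endoderm (hPFE, 1). ATAC-seq inserts sequencing adapters into open chromatin, so that reads pile up where DNA is accessible. All libraries come from 1 cell line, the labels do not say that replicates were separate cultures, and they give neither agents nor days. The hESC and hDE libraries carry titles that call them re-analysed, unlike those of hAFE and hPFE, so that in the steps from hDE to hAFE and from hDE to hPFE the stage and the origin of the data cannot be told apart.

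PAX1 and PAX9 are closely related paired-box transcription factors. In the embryo both are made in the endoderm of the pharyngeal pouches, from which the thymus and the parathyroid glands grow, and both are also made in the sclerotome, the part of the somites that forms the vertebral column. PAX9 is needed for thymus, parathyroid and tooth development, and PAX1 for the vertebral column and normal thymus growth. In the PAX9 window lie NKX2-8, a homeobox gene, before PAX9, and the end of SLC25A21, a mitochondrial carrier gene, whose span overlaps the PAX9 end and runs on beyond it. In the PAX1 window the long noncoding RNA gene LINC01726 covers most of the stretch before PAX1.

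In 6 of the 7 libraries the strongest accessible site of either window lay at a start site inside PAX9 (in hAFE replicate 1 a site beyond PAX1, described below, was stronger). Its sequence is shown because the summits of all 7 libraries fell within it. RefSeq (GRCh38.p14) has a PAX9 start on the plus strand at chr14:36661860, inside the gene span. The strongest summits there stood 32, 49, 51, 63, 54, 56 and 56 bp before this start in hESC replicates 1 and 2, hDE replicates 1 and 2, hAFE replicates 1 and 2 and hPFE, an order of libraries kept below. The 250 bases before the start (chr14:36661610-36661859, plus strand) read as follows, with the 32 bases that hold the 7 summits in capitals.
PAX9 inner start: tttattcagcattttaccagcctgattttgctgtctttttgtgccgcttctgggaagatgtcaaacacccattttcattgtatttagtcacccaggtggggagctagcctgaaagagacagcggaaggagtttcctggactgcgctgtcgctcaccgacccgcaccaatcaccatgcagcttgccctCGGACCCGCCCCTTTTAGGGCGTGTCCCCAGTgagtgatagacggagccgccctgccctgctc
The GC box GGGCGG matched 2 times on either strand, 58 and 16 bp before the start, and 42.6% of 35116 RefSeq promoter stretches of the same length held at least 1 match. CCAAT matched 1 time, 86 bp before the start (32.0% of promoter stretches). TATAAA (10.7%), the forkhead core TGTTTAC (3.0%), the GATA motif AGATAA (9.2%) and the homeobox core TAATTA (4.3%) had 0 matches here. The stretch was 54.8% G or C, against a median of 58.0% over the promoter stretches.

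At this site all 7 libraries were well above background. The deposited fold enrichment at the summit was 6.52, 10.3, 10.8, 11.5, 12.1, 12.7 and 10.3, which are the authors' values. The whole read counts recovered at the summit were 67, 314, 221, 569, 178, 316 and 267. These counts are not comparable between libraries, because the genome-wide background per position ran from 2.11 to 7.94 counts.

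To compare libraries, overlapping peaks were merged into regions, and the 50000 regions with the strongest −log10 p in each library were called strict. Strict regions merged over the libraries gave 129718 regions on chromosomes 1 to 22 and X, of which 22 lay in the PAX9 window and 14 in the PAX1 window. The level of a region is its summit height over the library's background, divided by the median of the same ratio over the 14587 regions that were strict in all 7 libraries. A level of 1 is thus that of a typical region open at every stage. The lists held 298508 to 299374 peaks each, numbered up to 300000 in every library, and end at a weakest level of 0.0455 to 0.137. The −log10 p of a peak also depends on its local background, so that a level above such a limit can go without a peak. In hDE replicate 2 the weakest level was 0.0932 and the weakest −log10 p was 8.86. A PAX9 region at level 0.183 there had a −log10 p of 9.40. Thus "no peak" sets no firm upper limit on the level and does not mean closed chromatin. The lowest strict level was 0.192 to 0.379. Replicate folds were taken over regions with a peak in both replicates (71814 in hESC, 83992 in hDE and 82948 in hAFE). Replicates differed there by a median of 1.38-fold in hESC, 1.52-fold in hDE and 1.40-fold in hAFE. The 95th percentiles were 2.53-, 3.51- and 3.00-fold. Regions without a peak in 1 of the replicates are left out of these values. In a bulk sample, a lower level in every cell and fewer cells with the region open cannot be told apart. Windows of the marker genes were in part ordered as the labels have them: EOMES, an early endoderm factor, had 8 and 8 strict regions in the hESC libraries against 13 and 13 in the hDE libraries, and among pluripotency genes DPPA4 had 9 and 8 in the hESC libraries against 0 in hPFE and SOX2 had 7 and 10 against 3, but NANOG had 6 and 10 against 7, LIN28B 9 and 11 against 9, and POU5F1 9 and 17 against 8. The pharyngeal gene TBX1 had 9 and 6 in the hAFE libraries against 7 in hPFE, and EYA1 had 14 and 13 against 7, so that these windows did not set hPFE above hAFE.

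Of the 506 peaks, 175 were part of a strict region of their own library (118 around PAX9, 57 around PAX1), 108 lay in a region that was strict in another library (62 and 46) and 223 lay outside every strict region (129 and 94). Those outside had levels up to 0.529 around PAX9 and 0.435 around PAX1 and are described by these counts alone. Peaks were present in all 7 libraries at 15 of the 36 regions, against 30.6% of all regions. Of the 36 regions, 4 were strict in all 7 libraries (11.2% of all regions) and 16 were strict in exactly 1 (43.3%).

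**Figure D1:**
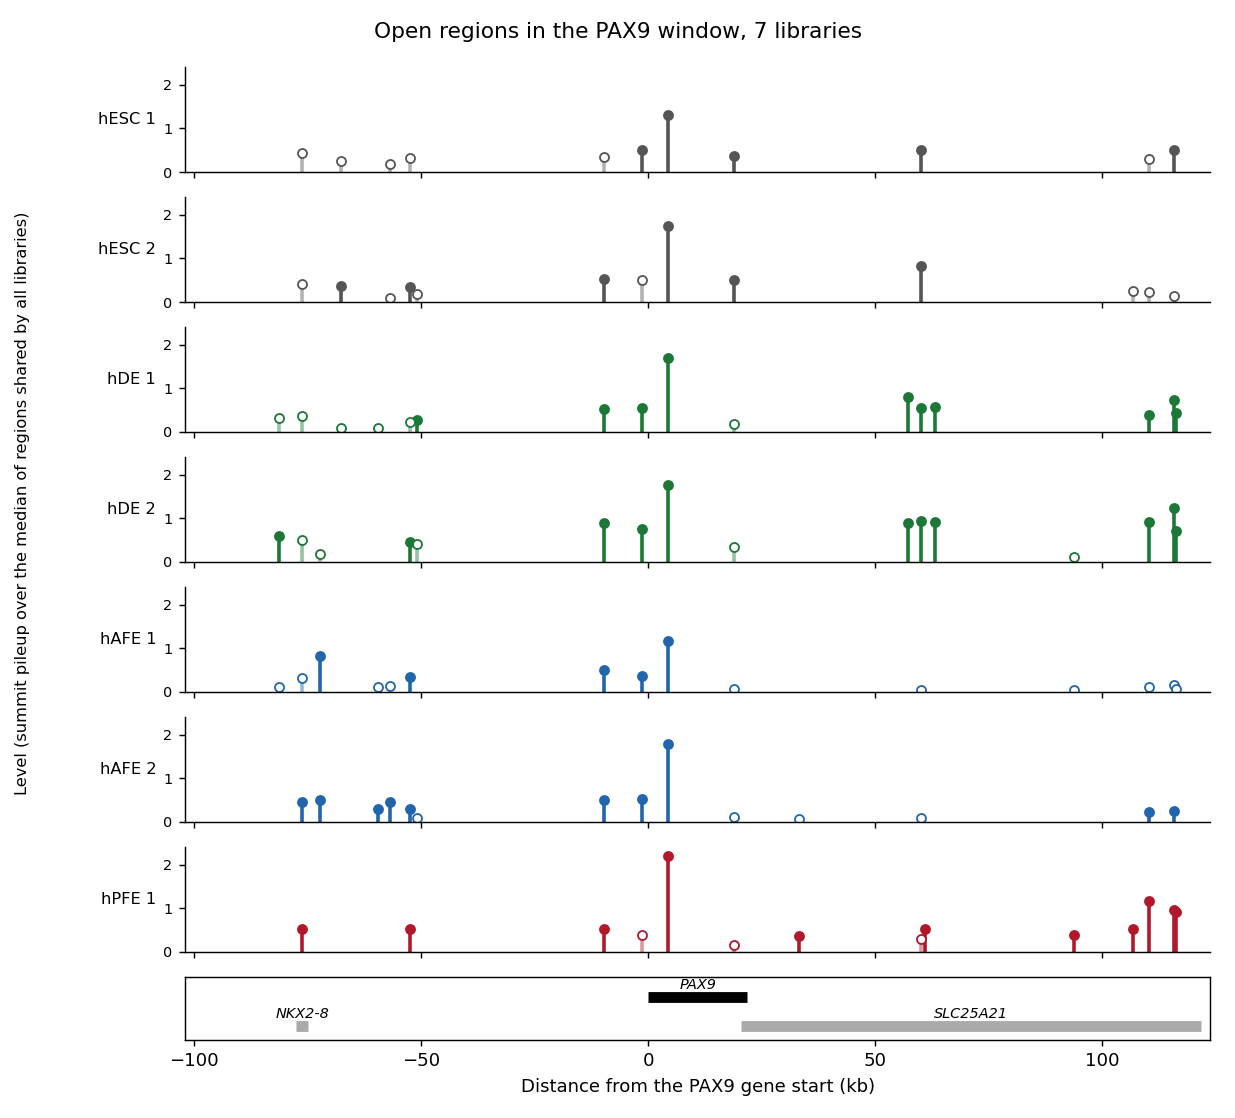
Regions of the PAX9 window by distance from the gene start (kb, horizontal axis) in each of the 7 libraries (panels), with the level as the height of each stem, filled circles for strict regions, open circles for the others and gene spans below. The region inside PAX9 is the tallest stem in every library, and stems of hDE and hPFE that are short or missing in hAFE stand to the right, inside SLC25A21.

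The region at the inner start (chr14:36661301-36662314, within PAX9) was strict at every stage. Its level was 1.31 and 1.75 (hESC), 1.69 and 1.77 (hDE), 1.16 and 1.79 (hAFE) and 2.19 (hPFE). The hPFE value is above every other library, but the replicates of hESC and hAFE are further apart from each other than hPFE is from the higher of either pair. In hPFE the region ranked 1222 by −log10 p among all regions of that library. Its level was tested with limma, in a fit over the 39726 regions that had a peak in all 7 libraries, with Benjamini-Hochberg adjustment over all of them. The log2 change from hAFE to hPFE was 0.63 (SE 0.35, adjusted p = 0.490) and from hESC to hDE it was 0.14 (SE 0.28, adjusted p = 0.860).

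Over the first base of the PAX9 span (chr14:36657568) a peak was present in hPFE and in no other library, and it was weak, at a deposited fold of 2.21 and rank 90872. No library had a peak over the far end of PAX9, or over either end of PAX1.

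Before PAX9, 4 regions had peaks in all libraries, and none of them passed limma. The region just before the gene (chr14:36655912-36656522, in the noncoding LOC105370455) had levels of 0.510 and 0.514 (hESC), 0.542 and 0.755 (hDE), 0.364 and 0.525 (hAFE) and 0.377 (hPFE). The region 9.8 kb before the start (chr14:36646764-36648706) had 0.353 and 0.531 (hESC), 0.527 and 0.882 (hDE), 0.50 and 0.492 (hAFE) and 0.533 (hPFE). At both, hDE replicate 2 was highest and the other 6 libraries lay between 0.353 and 0.542. At the latter the log2 difference from hESC to hDE was 1.00 (limma, SE 0.44, adjusted p = 0.165). The region inside NKX2-8 (chr14:36580682-36581875) ran from 0.318 to 0.516 over the 7 libraries. The region 52.5 kb before the start (chr14:36604635-36605469) ran from 0.237 in hDE replicate 1 to 0.525 in hPFE.

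A region 72.3 kb before PAX9 (chr14:36585023-36585577), between NKX2-8 and PAX9, stood out in hAFE. Its level was 0.831 and 0.492 in the hAFE libraries, 0.183 in hDE replicate 2, and no peak was present in the other 4 libraries. A region is called gained or lost here when it was strict in every library of one stage and had no peak in any library of the other, a rule that uses the replicates but is no test. By that rule this region was lost from hAFE to hPFE, 1 of 36 regions, while 4.18% of all regions were lost in that step.

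Beyond the PAX9 end, all 10 regions lay within the span of SLC25A21, and 6 of the 7 PAX9 regions with any call were among them. Of all regions, 28.8% were gained or lost in some comparison. A pair of regions 57.2 and 63.2 kb past the PAX9 start had peaks in hDE and at no other stage. The first (chr14:36714297-36715147) had levels of 0.809 and 0.885 (hDE) and the second (chr14:36720509-36721092) had 0.573 and 0.910. Neither had a peak in any of the 5 libraries of hESC, hAFE and hPFE, so that hDE did not overlap with the rest in the presence of a peak. The deposited fold enrichment in hDE was 9.87 and 10.6 at the first and 8.20 and 13.3 at the second. Both were gained from hESC to hDE and lost from hDE to hAFE and from hDE to hPFE. Over all regions, 1.99% were strict in both hDE libraries and without a peak in the other 5.

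Between these lay a region that was open in hESC and hDE (chr14:36717336-36717732). It had levels of 0.510 and 0.827 (hESC), 0.557 and 0.938 (hDE), 0.052 and 0.085 (hAFE) and 0.303 (hPFE). The hAFE libraries were below all others with no overlap, and hPFE lay between, a pattern not counted over all regions. The level fell by 2.92 on the log2 scale from hDE to hAFE (limma, SE 0.46, adjusted p = 3.56e-07) and this call held under all 9 other settings of the fit. From hAFE to hPFE it rose by 1.92 (SE 0.57, adjusted p = 0.0345), a call that depends on the fit: the adjusted p was 0.0510 without a trend of the spread with height, 0.350 without hAFE replicate 1, 0.131 without hAFE replicate 2, and 0.0614 and 0.0714 without hDE replicates 1 and 2.

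**Figure D2:**
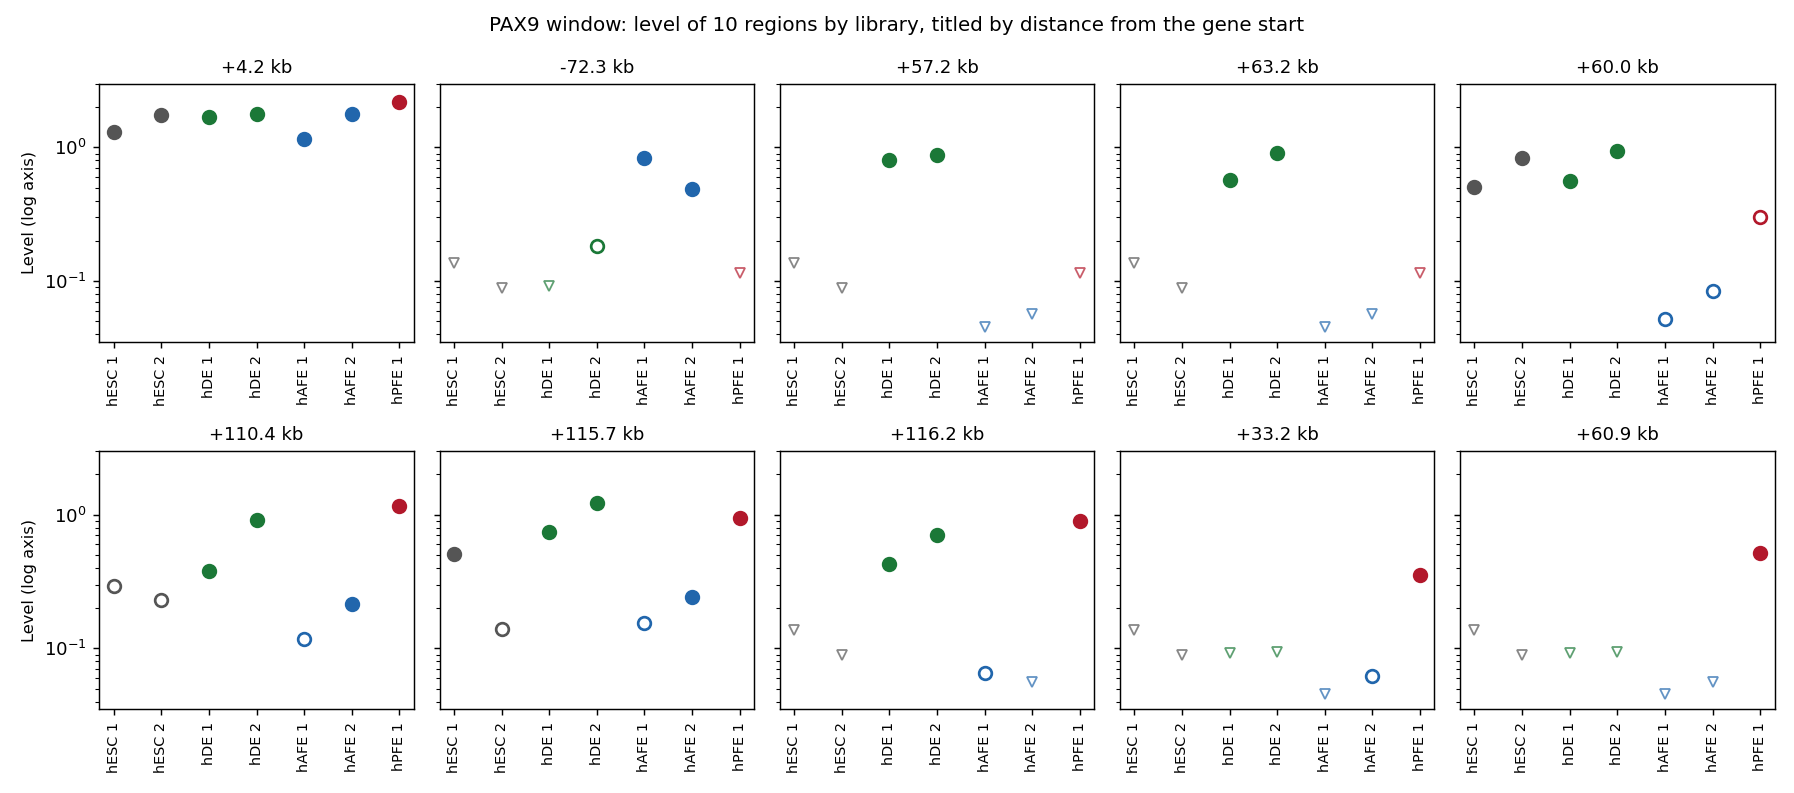
Level of single PAX9 regions (vertical axis, log scale, 1 is the median of regions strict in all libraries) in each library, grouped by stage, with filled circles for strict regions, open circles for regions that are not strict and triangles at the weakest deposited level for no peak. A triangle is no upper limit, because a region without a peak can have a higher level. The pair with peaks in hDE alone has triangles in the other 5 libraries, and the group near the far edge of the window is higher in hDE and hPFE than in hAFE.

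Near the far edge of the window, inside SLC25A21, 3 regions were higher in hDE and in hPFE than in hAFE. The region 110.4 kb past the start (chr14:36767579-36768353) had levels of 0.294 and 0.229 (hESC), 0.382 and 0.910 (hDE), 0.117 and 0.215 (hAFE) and 1.16 (hPFE). The region 115.7 kb past the start (chr14:36773088-36773492) had 0.510 and 0.140 (hESC), 0.740 and 1.23 (hDE), 0.156 and 0.243 (hAFE) and 0.951 (hPFE). At both, the hDE and hPFE libraries were above the hAFE libraries with no overlap, which was not counted over all regions. The region next to them (chr14:36773542-36774038) had no peak in hESC, 0.427 and 0.705 (hDE), 0.065 in hAFE replicate 1 with no peak in replicate 2, and 0.902 in hPFE, and it was gained from hESC to hDE. The last pair lie side by side and may not be independent. All 3 were strict in both hDE libraries and in hPFE but not in both hAFE libraries, as were 1.11% of all regions. Those at 110.4 and 115.7 kb were strict in hAFE replicate 2 too, at ranks 49083 and 40002. At 110.4 kb, hDE replicate 1 (0.382) lay nearer to hESC replicate 1 (0.294) than to hDE replicate 2 (0.910).

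The regions at 110.4 and 115.7 kb had peaks in all 7 libraries and could be tested with limma. From hESC to hDE the log2 level rose by 1.53 (SE 0.46, adjusted p = 0.0188) and 2.05 (SE 0.46, adjusted p = 0.000415). From hDE to hAFE it fell by 1.56 (SE 0.46, adjusted p = 0.0189) and fell by 2.02 (SE 0.46, adjusted p = 0.00069). From hAFE to hPFE it rose by 2.48 (SE 0.57, adjusted p = 0.00243) and 1.97 (SE 0.56, adjusted p = 0.0242). Neighbouring comparisons share their libraries and are not independent of each other. From hDE to hPFE the differences were 0.92 (SE 0.57, adjusted p = 0.386) and -0.05 (SE 0.56, adjusted p = 0.977).

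Single libraries decide several of these limma calls. For hESC to hDE the adjusted p of the 2 regions was 0.134 and 0.197 without hESC replicate 2, and 0.536 and 0.153 without hDE replicate 2. For hDE to hAFE it was 0.613 and 0.169 without hDE replicate 2, 0.546 and 0.125 without hAFE replicate 1, and for the region at 110.4 kb 0.0501 without hAFE replicate 2. For hAFE to hPFE it was 0.163 and 0.377 without hAFE replicate 1, and the region at 115.7 kb also missed the threshold without hAFE replicate 2 (0.0674), without hDE replicate 1 (0.0851) or 2 (0.0792), without the trend (0.0982) and with a replicate block (0.0732). The direction was the same in each. The hPFE stage has 1 library and is assumed to vary like the others, and the fit takes its spread almost wholly from other regions of like height (prior degrees of freedom 359, residual 3).

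Another 4 PAX9 regions were strict in hPFE and in no other library, all inside SLC25A21. The region 60.9 kb past the start (chr14:36718290-36718569) had a peak in the hPFE library, at a level of 0.516, and none elsewhere. The region 106.7 kb past the start (chr14:36764186-36764418) had 0.525 in hPFE and 0.263 in hESC replicate 2, with no peak in the other 5. Both were gained from hAFE to hPFE and from hDE to hPFE. The region 33.2 kb past the start (chr14:36690645-36690952) had 0.352 in hPFE and 0.062 in hAFE replicate 2, with no peak elsewhere, and was gained from hDE to hPFE. The region 93.8 kb past the start (chr14:36751176-36751609) had 0.393 in hPFE, 0.109 in hDE replicate 2 and 0.052 in hAFE replicate 1. With 1 hPFE library these regions have no replicate check.

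**Figure D3:**
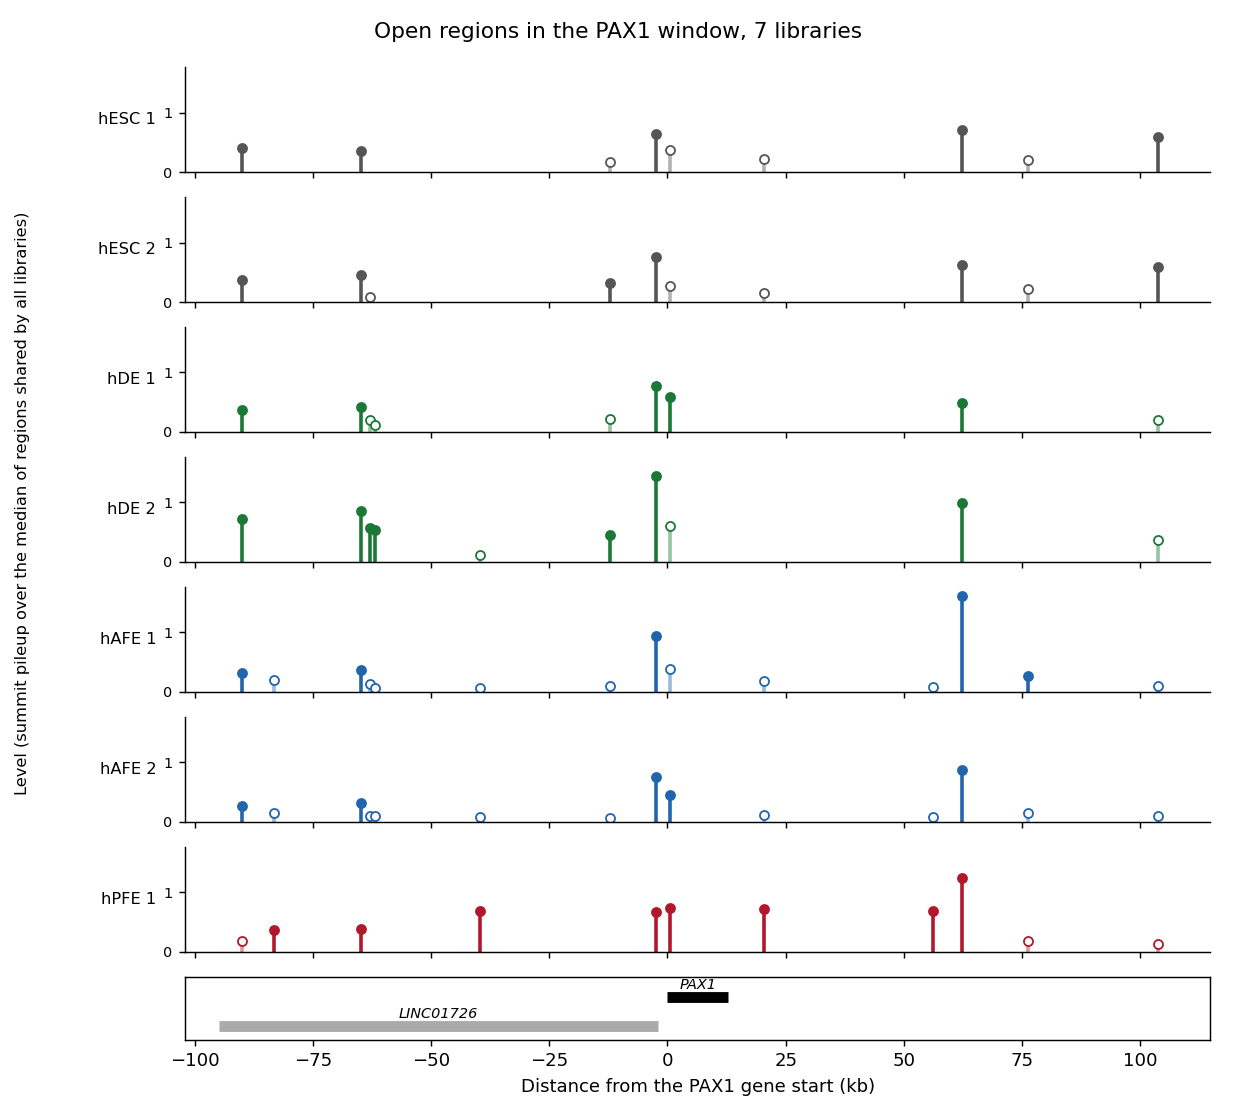
Regions of the PAX1 window by distance from the gene start (kb, horizontal axis) in each of the 7 libraries (panels), with stems and circles as in the map of PAX9. The filled circles at 2.4 kb before and 62.2 kb past the start recur in every library, and hPFE has 4 filled circles where no other library has one.

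Of the 14 regions around PAX1, 3 were strict in all 7 libraries and 3 were gained or lost in some comparison. Of the 22 around PAX9, 1 was strict in all 7 and 7 were gained or lost. Together 10 of 36 were gained or lost in some comparison, which is 27.8%, close to the 28.8% of all regions. The region 2.4 kb before the gene start (chr20:21702776-21703658, at the end of LINC01726) had levels of 0.647 and 0.749 (hESC), 0.779 and 1.44 (hDE), 0.935 and 0.746 (hAFE) and 0.664 (hPFE). The region 62.2 kb past the start (chr20:21767472-21768349), beyond the gene, had 0.706 and 0.615 (hESC), 0.489 and 0.994 (hDE), 1.60 and 0.876 (hAFE) and 1.24 (hPFE). The region 64.9 kb before the start (chr20:21640453-21641127) ran from 0.316 to 0.860. At each of these 3 the highest library was 1 of a replicate pair whose other member lay among the other stages.

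The region that begins 91 bp inside PAX1 (chr20:21705755-21706596) is the one in the gene span. Its level was 0.373 and 0.263 (hESC), 0.580 and 0.609 (hDE), 0.390 and 0.452 (hAFE) and 0.730 (hPFE). The stages did not overlap here, with hESC lowest, then hAFE, then hDE, then hPFE, but such orders were not counted over all regions. Neighbouring stages in this order differ by less than the 95th percentile of replicate folds. The log2 difference from hESC to hDE was 1.22 (limma, SE 0.45, adjusted p = 0.0759) and from hAFE to hPFE it was 0.66 (SE 0.55, adjusted p = 0.773).

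No PAX1 region passed limma in any of the 4 comparisons, with 6 regions in the fit. At an unadjusted p under 0.05 there were 3 from hESC to hDE (18.9% of all regions in the fit), 2 from hDE to hAFE (14.8%), 0 from hAFE to hPFE (11.9%) and 2 from hDE to hPFE (19.2%). Of the 9 PAX9 regions in the fit, 2 rose from hESC to hDE, 3 fell from hDE to hAFE and 3 rose from hAFE to hPFE. No region of either window passed in the other direction. Over all regions in the fit, 4.49% rose and 3.21% fell from hESC to hDE (7.69% together), 3.00% rose and 3.12% fell from hDE to hAFE (6.12%), and 1.37% rose and 1.54% fell from hAFE to hPFE (2.90%). From hDE to hPFE 0 of the 15 regions of both windows passed, while over all regions 3.19% rose and 4.43% fell (7.62%). At an unadjusted p under 0.05 there were 2 of these 15, which is 13.3% and below the 19.2% of all regions. The median log2 difference from hESC to hDE was 0.37 over the 9 PAX9 regions, 0.77 over the 6 PAX1 regions and -0.03 over all regions. From hDE to hAFE it was -0.39, -0.46 and 0.02, from hAFE to hPFE 0.63, -0.10 and 0.01, and from hDE to hPFE -0.05, -0.54 and 0.04.

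Around PAX1, 4 regions were strict in hPFE and in no other library. The region 56.2 kb past the start (chr20:21761646-21762169) had a level of 0.689 in hPFE, 0.078 and 0.085 (hAFE) and no peak in hESC or hDE. The region 20.5 kb past the start (chr20:21725805-21726445) had 0.721 in hPFE, 0.175 and 0.119 (hAFE), no peak in hDE, and 0.216 and 0.151 (hESC). The region 83.1 kb before the start (chr20:21622199-21622831, in LINC01726) had 0.369 in hPFE, 0.195 and 0.147 (hAFE) and no peak in hESC or hDE. These 3 were gained from hDE to hPFE. The region 39.5 kb before the start (chr20:21665856-21666381) had 0.68 in hPFE, 0.115 in hDE replicate 2, 0.058 and 0.073 (hAFE) and no peak in hESC or hDE replicate 1. Over both windows 8 of 36 regions were strict in hPFE alone, which is 22.2%, against 15.2% of all regions.

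**Figure D4:**
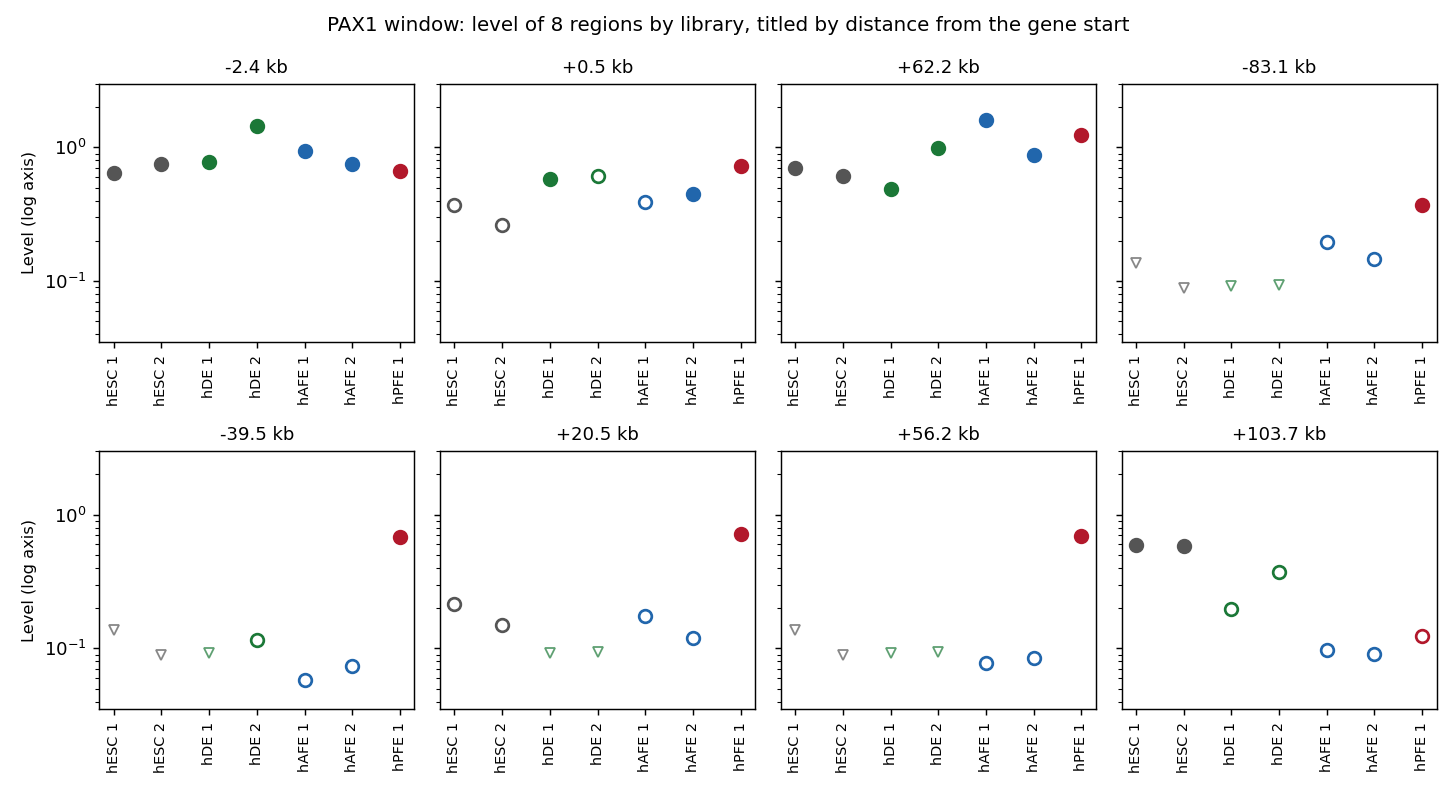
Level of single PAX1 regions (vertical axis, log scale) in each library, with marks as in the plot of PAX9 regions. The 4 regions strict in hPFE alone are weak or missing in the other stages, and the region 2.4 kb before the gene start lies between 0.647 and 1.44 at every stage.

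A region at the far edge of the PAX1 window ran the other way. The region 103.7 kb past the start (chr20:21809087-21809661) had levels of 0.588 and 0.581 (hESC), 0.198 and 0.376 (hDE), 0.097 and 0.090 (hAFE) and 0.123 (hPFE). Each stage up to hAFE was below the one before with no overlap. How many of all regions show this order was not counted. The log2 difference was -0.94 from hESC to hDE (limma, SE 0.48, adjusted p = 0.268) and -1.04 from hDE to hAFE (SE 0.48, adjusted p = 0.25) and neither passed.

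Counted by comparison, the gains and losses of the 36 regions set beside all 129718 regions were as follows. From hESC to hDE 3 regions were gained, all around PAX9, where 5.43% of all regions were gained, and 0 were lost (1.15%). From hDE to hAFE 0 were gained (2.05%) and 2 were lost, both around PAX9 (3.20%). From hAFE to hPFE 2 were gained (8.45%) and 1 was lost (4.18%), all around PAX9. From hDE to hPFE 6 were gained, 3 around each gene (12.1%) and 2 were lost, both around PAX9 (9.04%). Strict in every library of both stages were 6 (15.8% of all regions), 7 (16.4%), 6 (17.5%) and 8 (13.5%) of the 36 in these 4 comparisons. As shares of the 36 regions, 8.33%, 0.00%, 5.56% and 16.7% were gained in these comparisons, and each is 6 regions or fewer. No member region was strict in 1 replicate and without a peak in the other in hESC, hDE or hAFE, where 2.45%, 0.973% and 1.19% of all regions were, so that 0 of 36 is near the share of all regions.

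Some of these counts turn on single libraries, and the shares of all regions moved with them. Without hDE replicate 1, 5 regions were gained from hESC to hDE (9.96% of all regions) and 6 were lost from hDE to hPFE (16%), 3 of the latter around PAX1. Without hAFE replicate 1, 4 were gained (10.2%) and 3 were lost (7.73%) from hAFE to hPFE. From hDE to hAFE 1 region was gained without hDE replicate 2 (3.32%), hAFE replicate 1 (4.36%) or hAFE replicate 2 (4.27%). With the 25000 strongest regions of each library as strict in place of 50000, 1 region was gained from hAFE to hPFE (5.34%) and 3 from hDE to hPFE (8.39%).

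In number of strict regions, the PAX9 window varied more between libraries than the PAX1 window. Here the strict regions of each library were counted as they stood before merging over libraries, so that the 11 of hAFE replicate 2 around PAX9 fall in 10 of the merged regions. PAX9 had 5 and 6 (hESC), 10 and 11 (hDE), 5 and 11 (hAFE) and 11 (hPFE). PAX1 had 5 and 6 (hESC), 5 and 7 (hDE), 5 and 5 (hAFE) and 8 (hPFE). Over 19974 protein-coding genes with windows of the same kind, the median was 7 and 7 (hESC), 7 and 5 (hDE), 7 and 6 (hAFE) and 6 (hPFE). The PAX9 count was above those of 28.1% and 36.3% of genes (hESC), 74.7% and 92.3% (hDE), 27.3% and 82.3% (hAFE) and 82.5% (hPFE). The hAFE replicates disagree on PAX9, so that its count at that stage is between 5 and 11. The PAX1 count was above those of 28.1% and 36.3% of genes (hESC), 27.8% and 66.4% (hDE), 27.3% and 28.1% (hAFE) and 61.7% (hPFE).

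**Figure D5:**
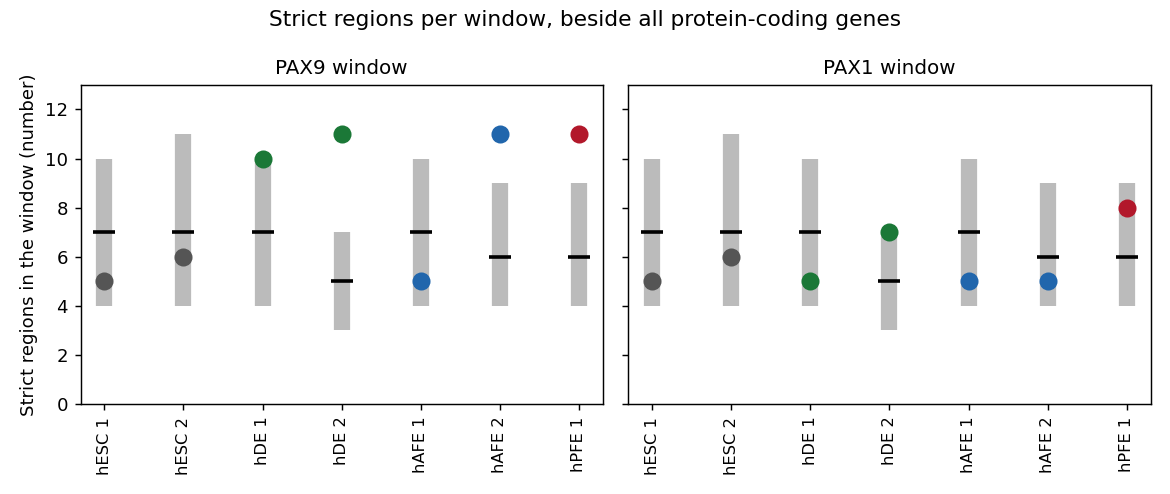
Number of strict regions (vertical axis) in the PAX9 and PAX1 windows in each library, with grey bars for the interquartile range and black dashes for the median over 19974 protein-coding genes. PAX9 is at 10 or more in both hDE libraries, hAFE replicate 2 and hPFE, and PAX1 stays between 5 and 8.

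The strict sets of the stages overlapped in part. Around PAX9, 9 regions were strict in both hDE libraries and 11 in hPFE, with 5 in common, which is 5 of 9 and 5 of 11. Around PAX1 the numbers were 4 and 8, with 3 in common. Over all regions, 35.5% of those strict in hPFE were strict in both hDE libraries. Taking any library of a stage, the 11 hPFE regions of PAX9 shared 6 with hDE and 6 with hAFE, and the 8 of PAX1 shared 4 and 4, while over all regions 46.7% were shared with hDE and 55.1% with hAFE. The protein-coding genes whose windows had the most similar counts over the 7 libraries, by the sum of absolute differences, were ZSWIM6, PPFIBP1 and ACYP2 for PAX9 (7 regions each in all) and GCSH, IDI1 and ITGB1 for PAX1 (2 regions each).

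Other genes of the pharyngeal pouch, 25 in all, were counted the same way. From hAFE to hPFE 15 of the 25 windows had at least 1 region gained and 16 had at least 1 lost, while 48.2% and 32.0% of all genes did. From hDE to hPFE 20 had a gain and 16 a loss (60.5% and 44.9% of all genes). From hESC to hDE 7 had a gain and 6 a loss (32.5% and 11.6%) and from hDE to hAFE 7 had a gain and 5 a loss (18.5% and 21.1%). TBX2, a T-box factor, gained 3 from hAFE to hPFE, and EYA1, a phosphatase and transcriptional coactivator, lost 6 in the same step. Some windows, such as those of HOXB1 and HOXB3, share regions. The hPFE library had more strict regions than both hESC libraries in 8 of the 25 windows, against 21.4% of all genes, and both PAX1 and PAX9 met this too.

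Both genes are also active in the sclerotome, and PAX9 in tooth mesenchyme. The 8 windows of sclerotome and paraxial mesoderm genes had a median of 6 and 7.5 strict regions in hESC, 8 and 5 (hDE), 7 and 6.5 (hAFE) and 6 (hPFE). The 6 windows of arch and tooth mesenchyme genes had 6 and 7 (hESC), 3 and 4 (hDE), 3 and 5.5 (hAFE) and 3.5 (hPFE). More strict regions in hPFE than in both hESC libraries were found in 2 of the 8 sclerotome windows, 0 of the 6 mesenchyme windows and 0 of 7 windows of other PAX genes, against 21.4% of all genes. The part of such cells in the PAX1 and PAX9 regions was not tested.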

How the data were processed

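The 7 libraries (2 hESC, 2 hDE, 2 hAFE, 1 hPFE) were deposited as narrowPeak lists, 1 per library, with replicates not pooled. The submitters' processing notes name hg38 and DiffBind, and no source used here names the aligner or the peak caller. Per the file names, the authors applied removal of duplicate and mitochondrial reads, Tn5 cut sites and a p limit of 0.01. The deposited values used are the fold enrichment (a ratio) at the summit, the −log10 p-value and q-value, and the summit offset; the deposited score was not analysed.

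From fold and −log10 p, whole summit counts and the local background were recovered (within 0.001 of every −log10 p), and the background of a library was its commonest value among weaker peaks. Peak numbers end at 300000 in every list, with the weakest −log10 p above the p limit, so that the number of peaks kept, and not the p limit, sets the weakest peak. Gene spans and promoters are RefSeq's, GRCh38.p14; PAX1 has no entry in the promoter table. Python 3.11.15, pandas 2.3.3, R 4.3.3 and limma 3.58.1 were used. The limma fit (log2 height, quantile normalized, trend of spread with height, adjusted p under 0.05) was added after the data were seen. No exact test of 2 libraries against 2 can reach 0.05. Some genes of the lists are not reported here by name. The members and gene lists were chosen with earlier results of these data known. Named were regions gained or lost, regions over a gene end, and the 3 highest of each window; the regions named beside these, among them those 60.0, 110.4 and 115.7 kb past the PAX9 start and 39.5 kb before and 103.7 kb past the PAX1 start, were chosen after their values were seen. Alternatives were 25000 strict regions, a summit at 10 times background, absence below 0.5 coverage, other limma settings and each replicate left out.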

Additional observations from a re-analysis of the deposited data

How the results depend on the processing

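With 25000 strict regions per library, 1 region was gained (5.34% of all regions) and 0 were lost (1.84%) from hAFE to hPFE, and 3 were gained from hDE to hPFE (8.39%). With strict set at a summit of 10 times the background, 1 was lost from hESC to hDE (0.858%), 1 was gained from hDE to hAFE (2.53%), and 2 were lost from hAFE to hPFE (4.84%). With absence set at less than 0.5 coverage, 1 was gained (3.28%) and 4 were lost (8.23%) from hDE to hAFE, and 4 were gained from hAFE to hPFE (12.7%). With each replicate left out in turn, 3 to 5 regions were gained from hESC to hDE (6.23% to 9.96% of all regions). From hDE to hAFE 0 to 1 were gained (2.65% to 4.36%). The number gained was 3 to 4 from hAFE to hPFE (10.2% to 10.6%) and 6 to 8 from hDE to hPFE (13.5% to 14.5%). The number lost was 0 from hESC to hDE and ran from 2 to 3 from hDE to hAFE, 1 to 3 from hAFE to hPFE and 3 to 6 from hDE to hPFE. Leaving out a library loosens the rule by its construction. The other causes were not tested.

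Some limma calls were lost with a replicate left out, as given above for single regions. Over the 9 other settings, the log2 change of the PAX9 region at 110.4 kb ran from 1.01 to 2.05 from hESC to hDE. It ran from -2.08 to -1.04 on to hAFE and from 2.06 to 2.89 from hAFE to hPFE. At 115.7 kb the ranges were 1.22 to 3.00, -2.31 to -1.67 and 1.63 to 2.31. At 60.0 kb they were -3.237 to -2.635 from hDE to hAFE and 1.689 to 2.215 from hAFE to hPFE. Without the trend limma called 1 region from hAFE to hPFE (1.98% of all regions in the fit, against 2.90% in the main fit). Whether replicate numbers pair the libraries is not known. Deviations of replicate 1 from the stage mean correlated at -0.03 between hESC and hDE, -0.285 between hESC and hAFE and 0.186 between hDE and hAFE, over 39726 regions. With 2 libraries in each of these stages, such values cannot decide it. With the replicate block limma called 2 regions from hESC to hDE (7.05% of all regions in the fit) and 3 on to hAFE (5.66%). It called 2 from hAFE to hPFE (1.88%) and 0 for hDE against hPFE (5.02%). For the counts of gained and lost regions no paired analysis was possible because they come from no test.

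The hPFE stage has 1 library, so that no result for it has a replicate check. The weakest deposited level was 0.137 in hESC replicate 1 and 0.0455 in hAFE replicate 1, so that by this measure absence of a peak is a looser statement in the former.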
